A study of Rattus norvegicus with 32 samples.

Results

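The genes described here encode the ionotropic receptors for glutamate, GABA and glycine, the ligand-gated ion channels that carry fast excitation and fast inhibition in the brain. They were taken from a table of 22587 rat genes by symbol: any symbol beginning with Gria, Grid, Grik or Grin and a digit, the GABA-A receptor subunits, and the glycine receptor subunits, with a mean of 10 normalized counts or more in either tissue. Of 43 matching symbols, 38 met that level. They comprised 18 glutamate receptor subunits (4 AMPA, 5 kainate, 2 delta, 7 NMDA), 15 GABA-A receptor subunits and 4 glycine receptor subunits. The remaining gene, Grid2ip, encodes a scaffold protein of glutamate receptors. It is not a receptor and was matched by the spelling of its symbol. The 5 genes below the level were Gabrp, Gabrr1, Gabrr2, Gabrr3 and Glra4. Gabrp came closest, with means of 6.32 in brainstem and 5.28 in hypothalamus. Among the genes kept, Glra3 had the lowest maximum, with means of 22.98 in brainstem and 35.0 in hypothalamus, followed by Grin3b with 35.5 and 14.9.

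Expression was measured by mRNA sequencing in brainstem and hypothalamus of Wistar Kyoto rats aged 13 weeks. All rats had been operated on, with either a sham operation or total bilateral adrenalectomy (ADREX), which removes the adrenal source of corticosterone and adrenaline. For 4 hours they then breathed either filtered air or 0.8 ppm ozone, an irritant gas, and tissue was frozen straight afterwards. The 8 groups were therefore sham air, sham ozone, ADREX air and ADREX ozone in each of the tissues, with 4 libraries per group and 32 in all.

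AMPA, kainate and NMDA receptors are cation channels opened by glutamate, and the delta subunits, though related in sequence, act mainly as synaptic organizers. NMDA receptors need the Grin1 subunit, and the Grin2 subunits set their kinetics and their block by magnesium. GABA-A receptors are chloride channels built from alpha and beta subunits together with a gamma or a delta subunit. Receptors with gamma subunits mostly serve synapses, whereas those with the delta subunit lie outside synapses and carry tonic inhibition, for example in cerebellar granule cells and in thalamic relay neurons. Glycine receptors, also chloride channels, dominate inhibition in spinal cord and brainstem. The usual adult form combines Glra1 with Glrb, the subunit that anchors the receptor to gephyrin, and Glra2 is best known from immature neurons.

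Libraries held 6.44 to 12.4 M reads, and values are the deposited normalized counts. The tissue labels held up against regional markers. All 9 brainstem markers tested were lower in hypothalamus, with Hoxb5 at 153 to 749 in brainstem and 0 to 7.51 in hypothalamus. All 9 hypothalamus markers tested were higher there, with Avp at 189 to 581 against 0 to 5.90 in brainstem. The hypothalamus marker Rax was near 0 in its own tissue, with no read in 8 of 16 libraries. Of 8 general neuron markers, 2 were higher and 4 lower in hypothalamus, with a median log2 difference of -0.12, and all 7 oligodendrocyte markers and all 6 endothelial markers were lower. Of 7 astrocyte markers 4 were lower and 1 higher, with sums of 23829 to 30220 normalized counts in hypothalamus and 38090 to 48548 in brainstem. The part of these cell types in the differences below was not tested. Of 12 markers of cortex, striatum and thalamus, 6 were higher in hypothalamus and 4 lower (median log2 difference 0.32), with sums of 8066 to 14854 against 1546 to 2828. The highest in hypothalamus were Tcf7l2 and Prkcd, known from thalamus, picked out after their values were seen. Tcf7l2 lay between 1714 and 2350 in hypothalamus and between 65.4 and 519 in brainstem, and Prkcd between 4946 and 11396 against 361 to 656. Not all of the list did so, with medians in hypothalamus and brainstem of 374 and 828.6 for Slc17a7, 23.3 and 120.1 for Neurod6, and 71.2 and 46.9 for Rora, which is also known from thalamus. Library 81 of the brainstem ADREX ozone group stood apart, with the lowest oligodendrocyte marker sum of the 16 brainstem libraries (275795 normalized counts) and the highest depth (12.4 M reads). Of the 16 hypothalamus libraries, number 84 of ADREX ozone had the highest oligodendrocyte (195431), neuron (48368) and astrocyte (30220) marker sums. Its sum for cortex, striatum and thalamus, 14854, was the highest as well. Liver transcripts exceeded 2000 RPM in 4 libraries, which were number 18 of sham ozone in both tissues and, in hypothalamus, number 2 of sham air and number 68 of ADREX air. In bulk tissue, fewer cells of a type and less RNA per cell cannot be told apart.

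Most of the receptor genes were expressed at a different level in hypothalamus than in brainstem. Averaged over the 4 conditions, 27 of the 38 genes were higher in hypothalamus and 7 were lower (limma, adjusted p under 0.05 over all 14533 genes tested, 16 against 16 libraries). The 7 include Gabra6, which was selected on its brainstem level alone. It also enters the counts of lower genes below, other than those of the glutamate and glycine receptor subunits. Over all genes 54.0% passed that test, 27.1% higher and 26.9% lower. The median log2 difference was 0.54 for the 38 genes and -0.01 for all genes, and the mean differed in the same direction in each of the 4 conditions for 34 of the genes. These were not the same 34 as those called: Glrb was called with a mixed direction, and Gria4, Grin2c and Gabra5 were mixed and not called. The libraries of the tissues did not overlap for 11 genes higher in hypothalamus and 4 lower, beside 8.95% of all genes (5.32% higher, 3.63% lower). In sham air rats alone, 4 against 4 libraries, 23 genes were higher and 6 lower, with 31.0% of all genes passing, and libraries did not overlap for 31 genes, 25 higher and 6 lower, beside 35.5% of all genes. Of the GABA-A subunits 13 were higher, 1 was lower and 1 did not pass. Of the glutamate receptor subunits 11 were higher, 4 lower and 3 did not pass, and the glycine receptor subunits were split, 2 higher and 2 lower. The deposited values had been scaled separately in each tissue. Recomputed size factors were 1.00645 in every brainstem library, 1.00466 in every hypothalamus library, and 1.00074 to 1.01343 over all 32 together. Rescaling over both tissues moved the median of all genes from -0.0053 to -0.0114 and left the count of genes called at 34.

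**Figure D1:**
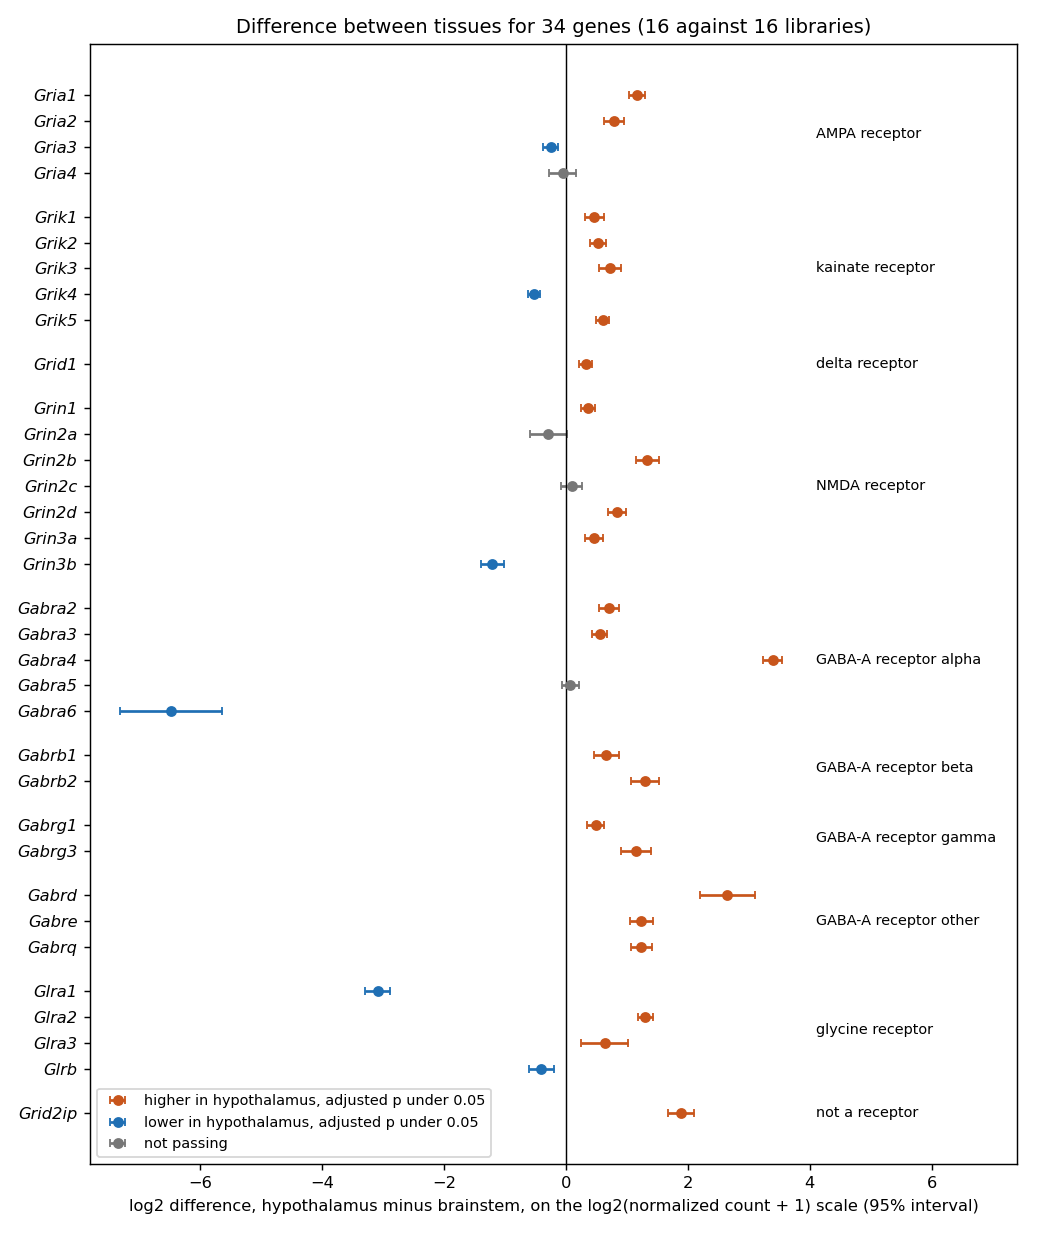
Log2 difference between hypothalamus and brainstem (horizontal axis) for 34 of the 38 genes (vertical axis, by family), averaged over the 4 conditions, with 95% intervals. Points to the right of 0 are higher in hypothalamus, with Gabra4 farthest at 3.39, and Gabra6 (-6.48, selected on its brainstem level alone) and Glra1 (-3.08) lie farthest to the left. The interval and the call drawn for Gabra6 are a description only, since a difference was built into its selection.

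The alpha subunits, which shape the affinity and location of GABA-A receptors, held the largest rise, that of Gabra4. They also held the largest fall, that of Gabra6, but Gabra6 was selected on its brainstem level alone. Gabra4, the alpha subunit that partners the delta subunit in forebrain, had normalized counts of 82.8 to 157 in brainstem (median 119.6) and 1006 to 1462 in hypothalamus (median 1244). Every hypothalamus library was above every brainstem library, and the groups lay far apart. The means were 1237 ± 118 and 118 ± 22.7 (SD, n = 16 each), a log2 difference of 3.39 ± 0.08 (SE, adjusted p = 1.54e-24). Gabrd, the delta subunit, ranged from 13.8 to 175 in brainstem (median 48.2) and from 213 to 365 in hypothalamus (median 257). The tissues did not overlap, and the brainstem libraries spread widely among themselves. Its means were 274 ± 44.3 in hypothalamus and 52.2 ± 38.7 in brainstem, a log2 difference of 2.65 ± 0.22 (adjusted p = 2.02e-11). Gabra4 and Gabrd are known from thalamic relay neurons, and the markers of cortex, striatum and thalamus, of which 6 of 12 were higher and 4 lower as given above, include Tcf7l2 and Prkcd, high in the same libraries; their part in the result was not tested.

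Gabra6, the alpha subunit known from cerebellar granule cells, went the other way. It was at 49.5 to 696 in brainstem (median 251) and at 0 to 7.60 in hypothalamus, where 6 of 16 libraries had no read and the median was 0.964. The hypothalamus total was 30 reads over 16 libraries, against 4220 reads in brainstem. The means were 1.87 ± 2.49 and 259 ± 189.6, a log2 difference of -6.48. Gabra6 was kept through its brainstem level alone, being under a mean of 10 in hypothalamus, so a difference between tissues was built into its selection and the value is given as a description, without its test. The level in brainstem moved with cerebellar markers, as described further below, and their part in the difference between tissues was not tested.

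Several of the genes lie next to each other in the rat genome, by their order in RefSeq's GRCr8 gene table, in which all 38 were found. On chromosome 10, Gabra6 and Gabrb2 are adjacent, with log2 differences between tissues of -6.48 and 1.30. The lowest of the 38 values, that of Gabra6, thus lay beside a gene that was higher in hypothalamus. Gabra6 was selected on its brainstem level alone, so its low value was built in and the contrast is only a description. On chromosome 14, Gabrb1 (0.66), Gabra4 (3.39), Gabra2 (0.71) and Gabrg1 (0.49) were all higher, with 1 other gene between Gabra4 and Gabra2. On chromosome 1, Gabrg3 (1.15) lies next to Gabra5 (0.07, not passing). Gabre (1.24), Gabra3 (0.55) and Gabrq (1.24) were all higher on the X chromosome, with 1 other gene between each and the next. On chromosome 2 the adjacent Gria2 (0.79) and Glrb (-0.40) went opposite ways.

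The 250 bases before the transcription start are shown for the adjacent pair Gabra6 and Gabrb2, and for Gabra4 and Gabrd, the 2 receptor subunits with the largest rises. They are RefSeq sequences of build GRCr8, printed 5′ to 3′ on the strand of the gene. Capitals mark the GC box GGGCGG, which Sp1-family factors can bind, and the nuclear factor I half-site TTGGC, each sought on both strands. Matches in the first and second of the capital runs of Gabra4 are a GC box and a half-site; in Gabrd, 3 overlapping GC boxes form a single run.
Gabra6, chr10:27327235-27327484, minus strand: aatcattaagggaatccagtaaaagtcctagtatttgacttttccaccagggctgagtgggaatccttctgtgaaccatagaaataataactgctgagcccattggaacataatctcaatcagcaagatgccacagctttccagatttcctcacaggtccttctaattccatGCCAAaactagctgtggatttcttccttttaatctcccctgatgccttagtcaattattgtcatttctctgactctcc
Gabrb2, chr10:27439543-27439792, plus strand: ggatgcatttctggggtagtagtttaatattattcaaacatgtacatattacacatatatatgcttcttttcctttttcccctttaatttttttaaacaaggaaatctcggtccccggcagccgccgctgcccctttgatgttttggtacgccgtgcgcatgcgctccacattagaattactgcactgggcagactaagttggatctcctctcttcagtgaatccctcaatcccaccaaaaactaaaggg
Gabra4, chr14:36944497-36944746, plus strand: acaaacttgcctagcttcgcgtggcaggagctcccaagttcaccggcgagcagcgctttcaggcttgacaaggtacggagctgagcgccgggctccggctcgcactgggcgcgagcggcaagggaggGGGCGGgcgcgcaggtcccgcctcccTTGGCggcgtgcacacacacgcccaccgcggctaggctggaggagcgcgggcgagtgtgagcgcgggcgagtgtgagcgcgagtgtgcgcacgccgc
Gabrd, chr5:171252710-171252959, minus strand: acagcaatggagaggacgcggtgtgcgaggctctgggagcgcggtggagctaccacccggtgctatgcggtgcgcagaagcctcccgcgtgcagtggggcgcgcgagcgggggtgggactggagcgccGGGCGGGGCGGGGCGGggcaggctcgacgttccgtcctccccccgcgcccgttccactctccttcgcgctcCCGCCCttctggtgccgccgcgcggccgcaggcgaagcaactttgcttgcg
The Gabra6 stretch had 41.2% G and C with 0 CpG dinucleotides and 1 half-site, and that of Gabrb2 43.2% with 8 CpG and no match. Gabra4 and Gabrd were rich in G and C, at 71.6% with 33 CpG and 74.0% with 35 CpG, beside a median of 51.2% over 33469 promoters. Gabra4 held 1 GC box and 1 half-site, and Gabrd 4 GC boxes. Of the 38 genes, 25 had a promoter among these and 13 had none. A GC box occurred in 30.5% of all promoters and in 12 of the 25 genes, and the half-site in 40.3% and 12 of 25. Grid2ip, which is not a receptor, was in both sets of 12. The 25 were counted by gene and all promoters by entry, so these shares are not of the same unit. The glucocorticoid response element, AGAACA and TGTTCT with 3 bases between them, occurred in 4 of all promoters and in 0 of the 25, and the cyclic AMP response element TGACGTCA in 1.59% and 0 of 25. TATAAA occurred in 12.9% and in Gabra3 and Glra2. These matches describe letters in this window only.

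Of the alpha subunits found at many synapses, Gabra2 was higher in hypothalamus by 0.71 ± 0.08 on the log2 scale and Gabra3 by 0.55 ± 0.06, whereas Gabra5, the alpha subunit of many extrasynaptic receptors in hippocampus, did not pass (0.07 ± 0.07, adjusted p = 0.358). Of the beta subunits, which complete the GABA binding site, Gabrb2 was higher by 1.30 ± 0.11 and Gabrb1 by 0.66 ± 0.10. Of the gamma subunits, which take part in synaptic placement, Gabrg1 was higher by 0.49 ± 0.07, at 909 ± 80.0 against 653 ± 103, and Gabrg3 by 1.15 ± 0.12, at 119.9 ± 31.7 against 52.6 ± 10.1. The less common epsilon and theta subunits, Gabre and Gabrq, known from hypothalamic and brainstem nuclei, were each higher by 1.24 (SE 0.09), at 184 ± 28.3 against 78.1 ± 14.3 and 113 ± 18.4 against 47.5 ± 9.23.

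**Figure D2:**
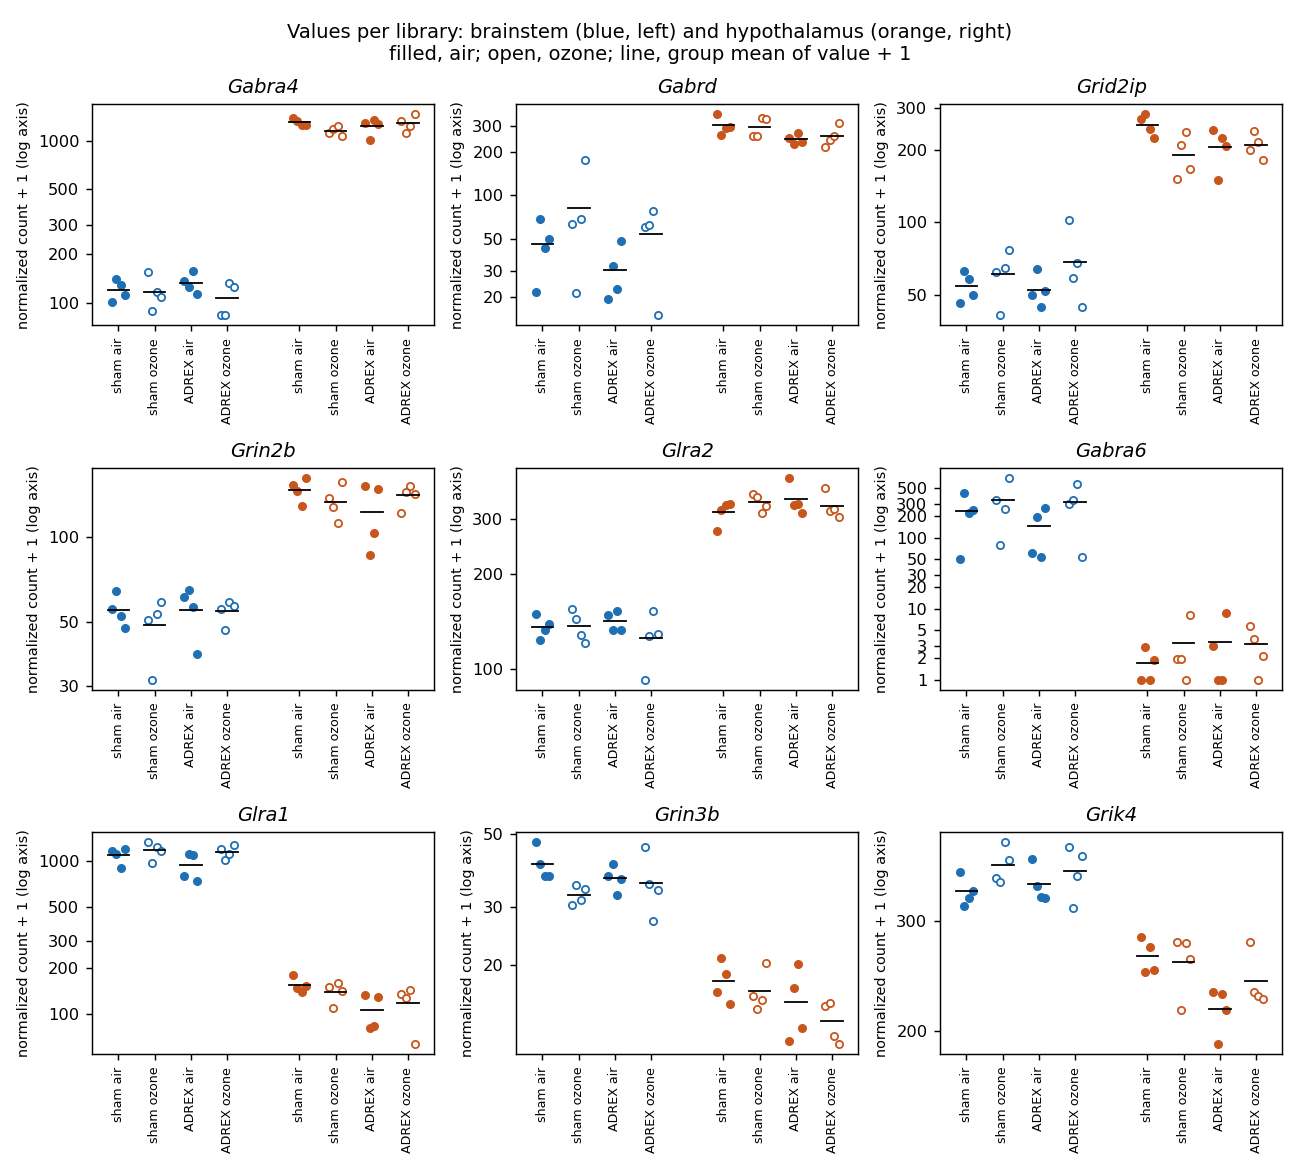
Normalized count plus 1 (log axis) in every library for the 5 largest rises and the 4 falls among genes called whose libraries did not overlap, by operation and exposure; blue, brainstem; orange, hypothalamus. Gabra4, Gabrd, Grid2ip, Grin2b and Glra2 sit higher in every hypothalamus library, and Gabra6 (selected on its brainstem level alone), Glra1, Grin3b and Grik4 lower. Gabra6 is among the 4 falls only through a call that was built into its selection.

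Glra1 and Glra2, the glycine receptor alpha subunits of adult and immature neurons, differed in opposite directions. Glra1, the adult synaptic alpha subunit, ranged from 741 to 1321 in brainstem (median 1108) and from 63.3 to 180.5 in hypothalamus (median 137). No library of either tissue reached the range of the other. The means were 1086 ± 164 and 129.8 ± 31.1, a log2 difference of -3.08 ± 0.10 (adjusted p = 3.52e-21). Glra2 was the reverse, at 91.6 to 154 in brainstem (median 132) and 274 to 403 in hypothalamus (median 329.5), again without overlap. Its means were 134 ± 15.9 and 332 ± 29.8, a log2 difference of 1.30 ± 0.06 (adjusted p = 1.17e-17). The ratio of Glra1 to Glra2, chosen after the values were seen and not corrected for gene length, ran from 5.41 to 13.1 in brainstem (median 8.20) and from 0.209 to 0.658 in hypothalamus (median 0.416). Glra3, an alpha subunit known from spinal pain circuits, was low in both tissues and higher in hypothalamus by 0.64 ± 0.19, at 35.0 ± 10.7 against 22.98 ± 9.10. Glrb, the beta subunit shared by these receptors, was abundant in both and lower in hypothalamus (log2 difference -0.40 ± 0.10, adjusted p = 0.00118), at 4291 ± 836 against 5726 ± 1128, with overlapping libraries. Its direction was not the same in every condition: the means under ADREX ozone were 4882 ± 1001 in hypothalamus and 4837 ± 1648 in brainstem, where library 81 stood at 2375. Slc6a5, the glycine transporter of glycinergic neurons, had a log2 difference of -5.93 ± 0.15. It is one of the brainstem markers counted above, so it is not a separate observation.

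Among NMDA receptor genes, Grin1, the obligatory subunit, was higher in hypothalamus by 0.37 ± 0.05, at 2038 ± 89.9 against 1595 ± 236. Grin2b, the subunit of slow receptors that prevails early in life, was at 30.5 to 63.8 in brainstem (median 54.9) and 85.3 to 159.6 in hypothalamus (median 142). The tissues did not overlap, and the means of 134 ± 20.8 and 52.6 ± 8.87 differed by 1.34 ± 0.09 on the log2 scale (adjusted p = 2.36e-13). Grin2a, the main subunit of mature forebrain synapses, did not pass (-0.29 ± 0.15, adjusted p = 0.101), at 77.1 ± 21.8 against 96.7 ± 33.9. Grin2c, known from cerebellar granule cells and astrocytes, did not pass either (0.09 ± 0.08, adjusted p = 0.352). The Grin2b to Grin2a ratio, also chosen after the values were seen, lay between 0.317 and 1.13 in brainstem and between 1.29 and 2.48 in hypothalamus. Grin2d was higher by 0.83 ± 0.07 and Grin3a by 0.46 ± 0.07. Grin3b, a glycine-binding subunit known from motor neurons, was lower, at 10.6 to 20.1 in hypothalamus (median 14.5) and 26.3 to 46.3 in brainstem (median 35.0), with a log2 difference of -1.20 ± 0.09 (adjusted p = 3.58e-12).

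The AMPA receptor subunits were divided. Gria1, which is added to synapses during plasticity, was higher in hypothalamus by 1.16 ± 0.06, at 779 ± 77.7 against 349 ± 54.3, and Gria2, which makes the channel impermeable to calcium, by 0.79 ± 0.08, at 4343 ± 680.2 against 2516 ± 368. Neither overlapped between the tissues. Gria3 was lower, with a log2 difference of -0.25 ± 0.06 and overlapping libraries, and Gria4, the subunit of fast auditory synapses, did not pass (-0.05 ± 0.11, adjusted p = 0.725). Of the kainate receptor subunits, Grik1, Grik2, Grik3 and Grik5 were higher by 0.46 to 0.73. Grik4, a high-affinity subunit that works only together with Grik1, Grik2 or Grik3, was lower. It ranged from 189.6 to 282 in hypothalamus (median 239) and from 314 to 399.97 in brainstem (median 348), without overlap, and its log2 difference was -0.53 ± 0.05 (adjusted p = 7.92e-11). The delta subunit Grid1, a synaptic organizer, was higher by 0.32 ± 0.05, at 439 ± 58.7 against 350.2 ± 42.4. Grid2ip, the scaffold protein, was at 39.9 to 102 in brainstem (median 57.4) and 149 to 284 in hypothalamus (median 219), without overlap. Its log2 difference was 1.89 ± 0.10 (adjusted p = 7.34e-16).

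Genes that work beside these receptors were counted from lists drawn up with earlier results of these data known, and the counts stand beside 54.0% of all genes called, 27.1% higher and 26.9% lower. Of 12 auxiliary subunits of AMPA and kainate receptors tested, 7 were higher in hypothalamus and 1 lower, led by Cnih2 (1.85 ± 0.11), Shisa7 (1.28 ± 0.08) and Cacng5 (1.31 ± 0.08), proteins that alter the gating or trafficking of AMPA receptors. Of 13 excitatory scaffold proteins, 10 were higher and 2 lower, led by Shank3 (1.90 ± 0.06), Grid2ip and Shank2 (1.19 ± 0.05). Of 7 inhibitory scaffold and auxiliary proteins, 3 were higher and 1 lower, with Nlgn2, the adhesion protein of inhibitory synapses, higher by 0.41 ± 0.04. Of 9 metabotropic receptors, 7 were higher and 2 lower, led by Grm2 (2.27 ± 0.07) and the GABA-B receptor subunit Gabbr2 (1.33 ± 0.05). Of 9 genes for glutamate synthesis and transport, 3 were higher and 2 lower. Slc17a6, which loads glutamate into vesicles in subcortical neurons, was higher by 0.94 ± 0.05, and Slc17a7, its counterpart in cortex and cerebellum, had a log2 difference of -1.18 ± 0.07. Of 9 genes for GABA and glycine synthesis and transport, 3 were higher and 3 lower, and Slc6a5, also used as a brainstem marker, was among the lower. Slc6a11, a GABA transporter of astrocytes, was higher by 0.52 ± 0.04, and the glycine transporter Slc6a9 had a log2 difference of -0.82 ± 0.06. The chloride importer Slc12a2 was lower (-1.01 ± 0.07), and the exporter Slc12a5 did not pass (-0.05 ± 0.06). Median log2 differences of these lists ran from -0.53 for the chloride transporters to 0.86 for the metabotropic receptors, beside -0.01 for all genes. The shares called in the lists for glutamate synthesis and transport (5 of 9) and inhibitory scaffolds (4 of 7) lay near that of all genes.

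Part of the spread among brainstem libraries ran with cerebellar markers. The question was whether genes known from cerebellum followed 12 markers of granule and Purkinje cells over the 16 brainstem libraries, whose marker sum ranged from 2331 to 5081 normalized counts. Gabra6 gave Pearson r = 0.911 and Spearman rho = 0.959 on the log2 scale, and Gabrd 0.907 and 0.882 (permutation p with 100000 resamples, adjusted over 5 relations: 2.5e-05 and 5e-05 for Gabra6, 2.5e-05 and 6.67e-05 for Gabrd). For r and rho of Gabra6 and r of Gabrd, the p before adjustment was the smallest that 100000 resamples can give. Those adjusted values are therefore limits set by the number of resamples. The libraries highest in Gabra6 were sham ozone 20 (696) and ADREX ozone 83 (576), both from ozone groups. The lowest were sham air 1 (49.5), ADREX ozone 84 (53.1) and ADREX air 67 (53.4). The median marker sum was 3316 in sham ozone against 3002 in sham air, and 3744 in ADREX ozone against 3029 in ADREX air. Libraries of the compared groups overlapped. Of 11 markers tested, 11 in sham and 8 in ADREX brainstem had estimates above 0 with ozone, and 0 passed. Grid2ip gave r = 0.802 and rho = 0.879 (adjusted permutation p = 0.000267 and 6.67e-05). Grin2c gave r = 0.449 (adjusted permutation p = 0.0878) and rho = 0.703 (adjusted permutation p = 0.00328). Without the 2 libraries farthest from the median marker sum r was 0.900, 0.875 and 0.826 for Gabra6, Gabrd and Grid2ip, and 0.583 for Grin2c, whose adjusted permutation p was then 0.00944. Without library 81 of ADREX ozone, where Grin2c stood at 898 against 299 to 431 in the other 15, its r was 0.597 (adjusted permutation p = 0.0185). Centred on the group means, within the 4 groups, r was 0.926, 0.948, 0.777 and 0.458 in the same order. Single markers differed: Neurod1, of granule cells, had r = 0.979 with Gabra6, Cbln3 0.932 and Fat2 0.930, whereas Pvalb had 0.014 and Barhl1 0.164. In hypothalamus, Calb1 and Zic1 of this list were higher than in brainstem (medians of 739 against 325 and 765 against 305). Cbln1 (1505 against 893) and Zic2 (89.7 against 43.0) were higher as well. By median, Pvalb, Car8, Neurod1 and Barhl1 were lower, and Etv1 was similar (608 against 617). Fat2 was at 0 to 8.99, Cbln3 at 0 to 7.60, and Pcp2 at 0 in 15 of 16 libraries. The marker sum was higher in hypothalamus (median 3939 against 3171), where Gabra6 was near 0. The correlations used the sum over brainstem libraries only. Within groups, the SD on the log2 scale was 1.32 for Gabra6 and 0.95 for Gabrd in brainstem, beside a median of 0.26 over the 38 genes.

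**Figure D3:**
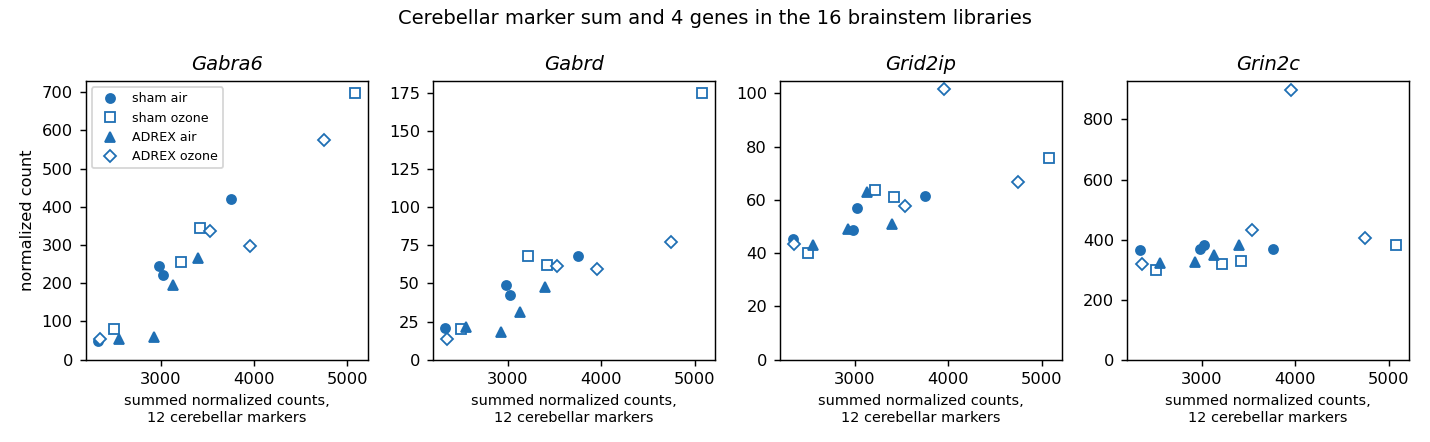
Normalized counts of 4 genes (vertical axes) against the summed normalized counts of 12 cerebellar markers (horizontal axes) in the 16 brainstem libraries; symbols give operation and exposure. Gabra6 and Gabrd climb with the marker sum, and the highest Grin2c value, 898, belongs to library 81 of the ADREX ozone group.

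Ozone was compared with filtered air in rats with intact adrenals and in adrenalectomized rats. In sham brainstem 0 of 38 genes passed, where 0.979% of all genes did, and in sham hypothalamus 0 of 37, where 1.59% of all genes did (limma, adjusted p under 0.05, 4 against 4 libraries; Gabra6 was too low in hypothalamus to be tested). At an unadjusted p under 0.05 there were 0 and 5 genes, beside 7.70% and 12.6% of all genes, and edgeR and DESeq2 also called 0. In sham brainstem 1 of 38 genes had groups that did not overlap, beside 7.18% of all genes. Of 6 glucocorticoid-responsive genes in the same libraries, 3 passed as higher in sham brainstem and 4 in sham hypothalamus. The smallest p in sham hypothalamus belonged to Grik1, with 259.9, 315, 296 and 301 normalized counts in air and 366, 364, 379 and 408 in ozone. Those groups did not overlap, as for 4 of 37 genes (9.62% of all genes), but the log2 change of 0.37 ± 0.13 did not pass (adjusted p = 0.219). Grid2ip (-0.43 ± 0.16, adjusted p = 0.249) and Grin3a (-0.36 ± 0.13, adjusted p = 0.250) came next. In sham brainstem Grin3b (-0.30 ± 0.17, adjusted p = 0.816) and Grid1 (0.16 ± 0.10, adjusted p = 0.894) were among the 3 smallest p.

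In adrenalectomized rats, ozone gave 0 calls among the receptor genes in either tissue, and 0 among all genes (0%). At an unadjusted p under 0.05 there were 5 genes in brainstem and 2 in hypothalamus, beside 5.91% and 8.03% of all genes, and edgeR and DESeq2 called 0 of the receptor genes. In brainstem the smallest p belonged to Grid1, at 285, 296, 355 and 282 in air and 404, 368, 392 and 395 in ozone, which did not overlap (0.36 ± 0.10, adjusted p = 0.801). Such groups were found for 2 of 38 genes in brainstem and 2 of 37 in hypothalamus, beside 2.19% and 3.64% of all genes. Grin2a (0.76 ± 0.30) followed, also with adjusted p = 0.801. In hypothalamus Grik2 (0.21 ± 0.08) and Grid1 (0.23 ± 0.11) were among the 3 smallest p, each with adjusted p = 0.586.

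Adrenalectomy in air, the comparison without ozone, gave 0 calls among the receptor genes in both tissues. Of all genes 0% passed in brainstem and 0.0138% in hypothalamus. Log2 estimates below 0 numbered 33 of 38 in brainstem (median -0.11) and 29 of 37 in hypothalamus (median -0.19), while 50% and 50.2% of all genes were above 0. In hypothalamus 7 of 37 genes had ADREX libraries all below the sham libraries and 0 all above, beside 2.38% of all genes for lower and 2.73% for higher (5.11% in all). In brainstem there were 0 of 38, beside 3.30%. Among the 7 were Grik2, Grik4, Grin3a, Gabra3, Gabrb2 and Glra1, with log2 changes from -0.57 to -0.19 and adjusted p from 0.759 to 0.915. At an unadjusted p under 0.05 there were 9 genes in hypothalamus and 0 in brainstem, beside 5.57% and 3.78% of all genes. Gabrb2 had the smallest p, at 934, 844, 876 and 828 in sham and 673, 379, 601 and 823 in ADREX (-0.54 ± 0.17, adjusted p = 0.759), followed by Grik2 (-0.24 ± 0.08) and Grik4 (-0.28 ± 0.10). In brainstem Glra1 (-0.24 ± 0.14), Gabra3 (-0.22 ± 0.14) and Grin2a (-0.46 ± 0.30) came first, at adjusted p = 0.9998. The oligodendrocyte marker sum lay at 148528 to 163732 in the hypothalamus ADREX air libraries and 122385 to 137471 in sham air, without overlap, and its part in these values was not tested. Each group of libraries enters an ozone comparison as well as an adrenalectomy comparison, so these estimates are not independent of one another. The genes of a comparison also share the same libraries, so the genes below 0 are not separate pieces of evidence.

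**Figure D4:**
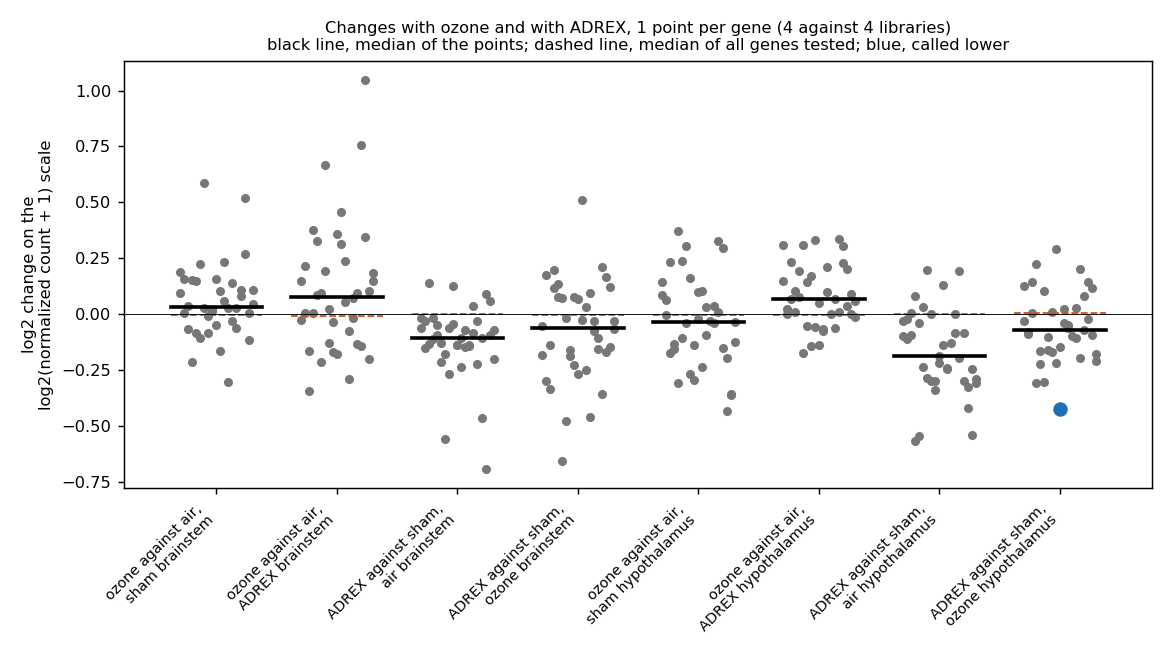
Log2 change of each gene (vertical axis) in the 8 comparisons within a tissue (horizontal axis), 38 genes in brainstem and 37 in hypothalamus, 4 against 4 libraries each. Black lines are the medians of these genes and dashed lines those of all genes; the large blue point is Gabra5, the single gene called, and the ADREX comparisons in air have the lowest medians, -0.11 and -0.19.

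Under ozone, 1 receptor gene passed between adrenalectomized and sham rats, Gabra5. In hypothalamus 1 of 37 genes passed, beside 2.24% of all genes (1.20% lower), and in brainstem 0 of 38, beside 2.44%. In brainstem 1 gene had an unadjusted p under 0.05, beside 11.2% of all genes, and edgeR and DESeq2 called 0. Of the glucocorticoid-responsive genes 5 of 6 passed as lower in each tissue. Gabra5 had 466.5, 377, 414 and 480.4 normalized counts in the sham ozone libraries of hypothalamus and 317, 347, 339 and 288 in ADREX ozone. The groups did not overlap, as for 3 of 37 genes (6.64% of all genes; in brainstem 1 of 38 and 7.29%), although the lowest sham library and the highest ADREX library were close. The means were 434.5 ± 47.8 and 323 ± 26.1 (SD, n = 4 each), a log2 change of -0.42 ± 0.09 (limma, adjusted p = 0.0196). edgeR and DESeq2 on the recovered reads also called it (adjusted p = 0.0190 and 0.00141). The call was lost in a fit of these 8 libraries alone (adjusted p = 0.135) and without sham ozone 17 (0.0764), sham ozone 20 (0.0874), ADREX ozone 81 (0.0600) or ADREX ozone 84 (0.0539), where the log2 change lay between -0.42 and -0.37. Over all alternatives its adjusted p ran from 0.00141 to 0.135. In air the hypothalamus means were 404 ± 18.4 in sham and 355 ± 26.0 in ADREX, which did not pass. In brainstem under ozone they were 377 ± 30.5 and 323 ± 84.6, which did not pass either (-0.26 ± 0.16, adjusted p = 0.617). The difference between the ozone and air effects of adrenalectomy on Gabra5, tested as an interaction, did not pass in hypothalamus (-0.24 ± 0.13, adjusted p = 0.9997). Endothelial markers moved with these groups, with 4 of 6 higher in ADREX ozone and sums of 2085 to 2196 against 1482 to 1571 normalized counts; of 7 oligodendrocyte markers 2 were higher and 1 lower. ADREX ozone 84, the lowest in Gabra5 (288), had the highest oligodendrocyte marker sum of the hypothalamus libraries (195431 normalized counts). The part of these markers in the Gabra5 result was not tested.

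**Figure D5:**
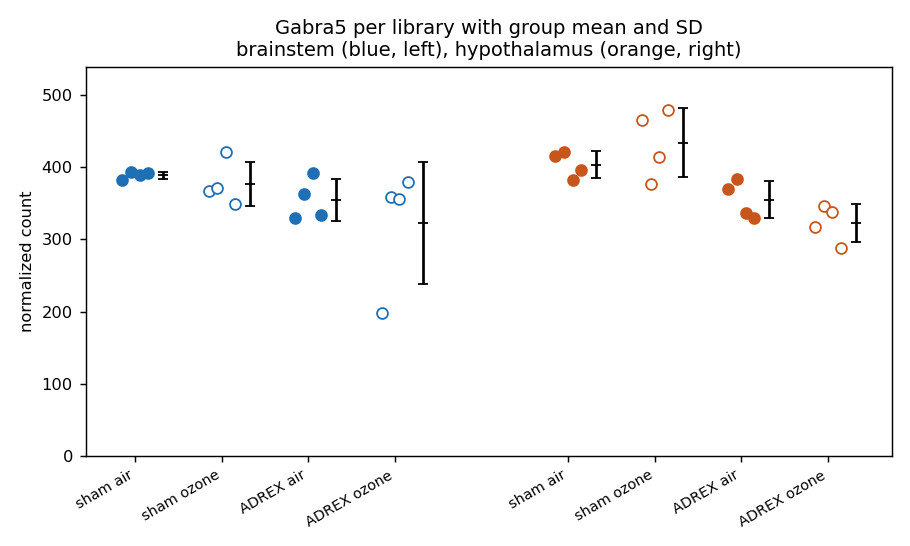
Normalized counts of Gabra5 (vertical axis) in every library of the 8 groups (horizontal axis), with mean and SD. In hypothalamus the ADREX ozone libraries, at 288 to 347, lie below the sham ozone libraries, at 377 to 480.4.

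Of the other genes under ozone, Grin2c, picked out after its values were seen, had in hypothalamus 367, 370.0, 356 and 361 in sham and 421, 418, 416 and 443 in ADREX, without overlap, and a log2 change of 0.22 ± 0.07 that did not pass (adjusted p = 0.161). Endothelial markers also stood higher in brainstem ADREX ozone, with 4 of 6 passing. In brainstem Grin2c (0.51 ± 0.21, adjusted p = 0.348) and Glrb (-0.46 ± 0.22, adjusted p = 0.456) had the smallest p; without library 81 of ADREX ozone, the highest in Grin2c and the lowest in Glrb, the estimates were 0.20 and -0.15. From the lists of partner genes a single gene passed in any comparison within a tissue. Glul, which encodes glutamine synthetase, the astrocyte enzyme that turns glutamate into glutamine, was at 9973 ± 1529 in ADREX ozone and 15606 ± 1489 in sham ozone hypothalamus (-0.65 ± 0.10, adjusted p = 0.00167). For the interaction of ozone and adrenalectomy 0 receptor genes passed in brainstem, beside 0.201% of all genes, and 0 in hypothalamus, beside 0.138%. The smallest p belonged to Grin2c (0.62 ± 0.30), Grin2a (0.67 ± 0.43) and Grid1 (0.20 ± 0.15) in brainstem, at adjusted p of 0.956 to 0.994. In hypothalamus they belonged to Grid2ip (0.47 ± 0.23), Grin3a (0.36 ± 0.19) and Gabra5, all with adjusted p = 0.9997. At an unadjusted p under 0.05 there were 0 in both tissues, beside 5.30% and 4.40% of all genes, and edgeR and DESeq2 called 0.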

How the data were processed

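The authors deposited normalized counts per gene for all 32 libraries in a single table, used here as a signal, since values were scaled. Per the labels' protocols, mRNA was selected before library construction. Per the submitters' processing notes, the tools and build named are Partek, DESeq2 and rn6, with no role stated; aligner and annotation were not given in the sources used here. Values in a library were whole multiples of a step (0.623 to 1.25). Read counts recovered from it were whole for 100% of values (tolerance 0.001) and came to 6.44 to 12.4 M reads per library. The authors had scaled the signal within each tissue.

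Tests used limma 3.58.1 (R 4.3.3, trended prior) on log2(value + 1), which understates changes of low genes, for genes averaging at least 10, with Benjamini-Hochberg adjustment over all of them. Comparisons inside a tissue came from a model of 4 group means over 16 libraries, tissue contrasts from a model of 8 group means over 32. Other settings were pseudocounts 0.5 and 5, no filter, a filter at 50, rescaling, edgeR 4.0.16 and DESeq2 1.42.0 on recovered reads, the compared groups only, a cerebellar covariate, the replicate number as block, and left-out libraries. Members and lists were chosen with earlier results of these data known. Genes named in full are all those called when 10 or fewer, otherwise the 5 largest rises and falls with non-overlapping groups (4 falls existed); with no call, the 3 smallest p; and up to 3 called per partner list. Values of some single genes are not reported here, though counts over all 38 include them. No label ties libraries to separate animals, so p-values measure the spread between libraries, which may be technical. How reads shared by related genes were counted is not known here.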

Additional observations from a re-analysis of the deposited data

Results flagged for a closer look

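Of 272 sets of 4 libraries, 1 for each reported gene and group, 18 held a library far from the other 3 by Dixon's criterion; chance gives about 1 in 20. In brainstem sham air, Gabrg3 was high in library 4 (71.7), while library 1 was low in Gabra2 (253) and Gabrq (39.9). In brainstem sham ozone, library 18 was low in Grik1 (218) and in Grin2a (53.7, others 118 to 121). In brainstem ADREX air, Grin1 was high in library 65 (2025), and library 66 was high in Grin2a (112) and Gabra2 (318). Library 81 of brainstem ADREX ozone was low in 4 genes at once, Gria2 (1647), Gria3 (2410.4), Gabra5 (197) and Glrb (2375), and library 84 was high in Gabrg3 (62.7).

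In hypothalamus, sham ozone library 20 was high in Gabra6 (7.11). In ADREX air, library 65 was high in Gria1 (876). In ADREX ozone, library 81 was high in Grik4 (276), and library 84 was high in Grin2c (443) and low in Glra3 (22.3).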

How the results depend on the processing

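For the tissue comparisons, 28 to 31 genes were called in sham air and 32 to 35 over the 4 conditions across all alternatives, with at least 27 and 32 shared with the values reported. The 9 counts of 0 within tissues stayed at 0. The count of 1 under ozone in hypothalamus fell to 0 in the compared groups alone and lay between 0 and 1 when single libraries were left out. Pearson's r of Grin2c with cerebellar markers passed without the 2 farthest libraries (0.583), with the mean log2 of the markers (0.486) and without brainstem ADREX ozone 81 (0.597); the last of these and the mean log2 were chosen after seeing the data. Across settings for the single genes reported, 2235 values kept direction and side of the threshold, 8 lost significance, 8 gained it and 0 reversed. Between the tissues, deviations of libraries with the same replicate number correlated above 0.1 in 7 of 16 pairs (-0.53 to 0.61). The highest was number 18 of sham ozone, rich in liver transcripts in both tissues. None of 16 libraries correlated best with its own number. Libraries of the same rat need not deviate alike in both tissues, so this cannot decide whether the number marks an animal. With the replicate number as a block, 29 and 34 genes were called between tissues, as without it. Gabra6 rested on 30 reads in all in hypothalamus, where the median depth was 8.24 M reads, against 7.67 M in brainstem.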
